A study of Apis mellifera with 96 samples.

Results

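The genes described here are 80 protein-coding genes of the honey bee (Apis mellifera) that the count table lists only by a LOC identifier, the placeholder RefSeq gives to a gene without a symbol. They varied between colonies of origin and moved little with the work a bee did or with the day on which it was caught. They were picked by their measured values. Of the 9935 genes in the table, 5601 LOC genes had a mean CPM of at least 10 (CPM are the counts of a gene scaled to a common total of counts on genes). Among these, 1315 were steady, which here means that 3 differences on the log2(CPM + 1) scale were each under 0.2 in size. The differences were foragers minus nurses, day 26 minus day 7, and the role difference at day 26 minus that at day 7. The 80 genes with the widest range over the 6 colony means were then taken, a colony mean being the average of its 4 means for role and day. All colony, role and day values of these genes are therefore a description of what was picked, and no test of them is given. All 80 were found as symbols in RefSeq's honey bee gene list (assembly Amel_HAv3.1), which gives no product for them, so no function is stated.

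A honey bee colony is headed by a queen that mates with many drones, so the workers of a colony share a mother and belong to several father lines. Colonies thus differ in the alleles their workers carry, as well as in what the larvae were fed and met before they emerged. Young adult workers usually nurse the brood and older ones forage, and this change of work comes with large changes in the fat body, the food glands and the brain.

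The bees were untreated and labelled wild type. Adults 1 day old from origin colonies 107, 109, 115, 122, 127 and 137 were spread over 3 nuclear hives, and foragers and nurses were taken on days 26 and 7 and frozen. Whole bees were used for 3′ tag sequencing (TagSeq), in which reads come from near the end of a transcript, so that counts scale little with transcript length. The 92 libraries used here were 24 of foragers and 24 of nurses at day 26, and 22 of foragers and 22 of nurses at day 7. Each combination of colony, role and day had 4 libraries, except foragers at day 7 of colonies 107 and 127 (3 each) and nurses at day 7 of colony 127 (2). The 6 colonies gave 15, 16, 16, 16, 13 and 16 libraries in the order above. The sources used here do not say whether a library is a single bee, and the numbers of the replicates are not tied to the hives. The spread between libraries may therefore be biological or technical. Since the whole body was sampled, fewer cells of a type and less RNA per cell cannot be told apart in any value below.

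Libraries held 197805 to 2300891 counts on genes, with a median of 1288440.5. The shallowest, replicate 3 of colony 122 foragers at day 7 (197805 counts), and the library marked 3 #2 of colony 109 foragers at day 26 (355499 counts) were far below the others, which began at 587375. The first listed 10 of the 80 genes at 0 and the other listed 2 at 0, while no other library listed any at 0. As a check of the colony labels, the balance among the 13 mitochondrially encoded genes, which were not LOC genes, was compared with each colony's mean. For 7 of the 92 libraries it lay nearer another colony than their own by more than 0.2 (root mean square of log2 shares, a limit chosen after seeing the data). They came from colonies 115 (3 libraries), 127 (2), 109 (1) and 122 (1, the shallowest library). The 3 of colony 115, forager libraries 1 and 2 #2 at day 26 and nurse library 2 #2 at day 7, lay at a distance of 3.17 to 3.35 from their own colony and of 0.278 to 0.416 from another (107 or 122), while the other 13 of colony 115 lay at 0.466 to 1.85 from their own. Colony 115 also had the lowest median sum of the 13 genes, 19041 CPM, against 35686 to 54581 CPM in the other 5 colonies. Without the limit of 0.2, the own colony was nearest for 15 of 16 libraries of colony 109 and 13 of 16 of 115. It was nearest for only 5 of 15 of colony 107, 8 of 16 of 122, 9 of 13 of 127 and 9 of 16 of 137. A library inside the limit is therefore not shown by this check to bear the right label. The markers of 8 tissues (28 of the 30 genes in the table, none at 0 throughout) were detected in every colony. Some of them differed between colonies in their median sums. For brood food gland genes the median was 50503 CPM in colony 107, 40668 in 122, 35680 in 109, 23289 in 137, 13140 in 115 and 8319 in 127, with wide and overlapping ranges (for example 3569 to 208850 CPM in colony 107 and 637.6 to 136960 in 127). For fat body genes the medians ran from 981.1 CPM in colony 122 to 317.7 in 115, for venom gland genes from 5263 CPM in 109 to 1762 in 107, for cuticle genes from 985.8 CPM in 137 to 337.3 in 122, and for immune genes from 5119 CPM in 137 to 3253 in 127. For muscle, photoreceptor and neuron genes they lay between 1338 and 1569, 186.7 and 207.6, and 50.2 and 65.7 CPM. All these medians pool foragers and nurses of both days. Colony 107 had 3 forager libraries at day 7, and colony 127 had 3 of foragers and 2 of nurses then, against 4 elsewhere. The effect of this unequal makeup on the order of the colonies was not tested. The part of these tissues in the colony differences below was not tested either.

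The range of the colony means ran from 0.60 to 1.71 across the 80 genes, with a median of 0.68, against a median of 0.31 over the 1315 steady LOC genes and 0.36 over all 5819 genes of the same level. Only 5 genes had a range above 1, that is a factor of more than 2 in CPM + 1. These were LOC724565, LOC102653935, LOC552073, LOC724439 and LOC726332. Most of the genes were low in level, with mean CPM between 10.3 and 1227 and a median of 23.9. For 62 of them the mean was under 50 CPM and for 6 it was above 300. The median count of a gene per library was 12 to 1438, depending on the gene. The standard error of the difference between the highest and the lowest colony, from the spread inside the 24 groups, was 0.07 to 0.36 with a median of 0.16.

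LOC724565 had the widest range of all. It was at 18.7 to 197 CPM in the 16 libraries of colony 115 (median 41.1), against 2.95 to 67.1 CPM in the 13 of colony 127 (median 13.5). Colony 109 lay close to colony 115, at 7.29 to 87.2 CPM (median 34.0), and colony 122 between, at a median of 21.0 CPM. Colonies 137, 107 and 127 lay together, with medians of 15.5, 12.8 and 13.5 CPM. The widest step in this order, 0.70 of the whole 1.71 (± 0.36 SE), was the one between colonies 109 and 122. Every library of colony 115 exceeded the median of colony 127, although the 2 sets overlapped. The spread inside groups was also the widest among the 80, with an SD of 0.94, and a single group could span a wide range. Nurses of colony 115 at day 7 had 18.7, 34.1, 71.7 and 197 CPM, and nurses of colony 137 at day 7 had 2.30, 4.28, 14.5 and 49.9 CPM.

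LOC102653935 was highest in colony 115, with 10.9 to 88.8 CPM (median 26.0), and lowest in colony 137, with 1.70 to 26.7 CPM (median 14.3). The difference was 1.30 ± 0.29 SE. Here colony 137 stood alone at the bottom, 0.53 below colony 122, which was next. The medians of colonies 115 and 107 were 26.0 and 29.6 CPM, so the order of these 2 depended on whether means or medians were read.

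LOC552073 was highest in colony 109, with 97.7 to 312 CPM (median 184), against 34.2 to 203 CPM (median 85.7) in colony 107, a difference of 1.09 ± 0.17 SE. Colony 107 stood 0.55 below colony 127, the next lowest, and this gap made up 50.1% of the range. Foragers of colony 107 at day 26 had 34.2, 34.8, 39.4 and 150 CPM, while foragers of colony 109 at day 26 had 125, 167, 194 and 267 CPM. So 3 of those 4 libraries of colony 107 lay far below every one of colony 109 in the same group, and the fourth did not. LOC724439 was highest in colony 107, with 58.6 to 126 CPM (median 113), against 32.3 to 85.9 CPM (median 43.1) in colony 137, a difference of 1.07 ± 0.23 SE. LOC726332 was highest in colony 115, with 11.7 to 56.4 CPM (median 32.6), against 3.69 to 24.8 CPM (median 16.8) in colony 137, a difference of 1.04 ± 0.19 SE.

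**Figure D1:**
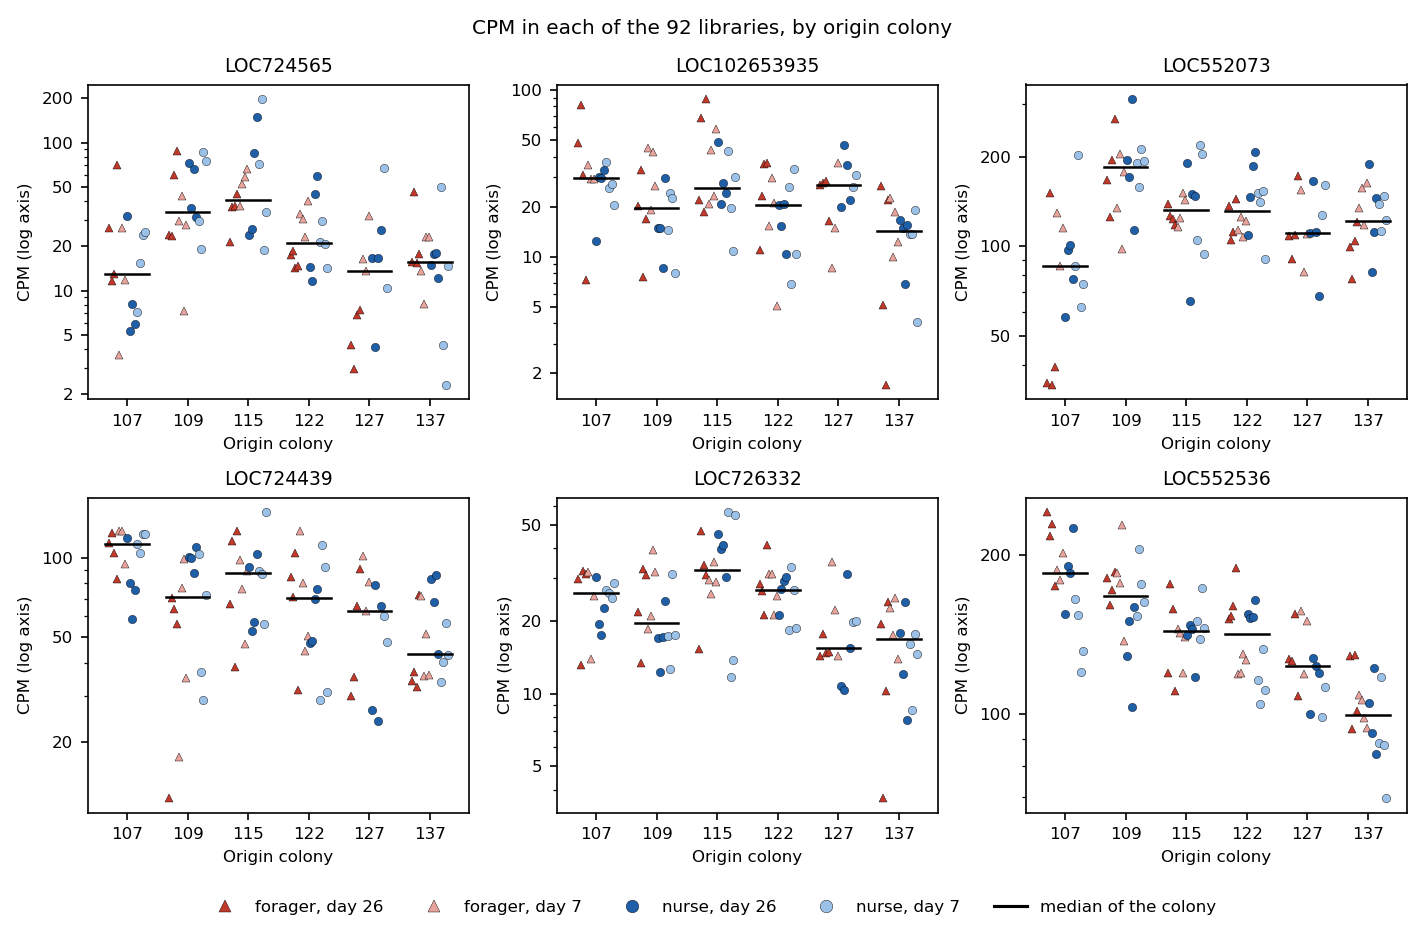
CPM on a log axis (each panel with its own range) in each of the 92 libraries for the 5 genes with a colony range above 1 and for LOC552536, by origin colony. Triangles are foragers, circles are nurses, dark symbols are day 26, pale ones day 7, and bars are colony medians. LOC552536 shows the tightest libraries and LOC724565 the widest scatter, with its highest library at 197 CPM in colony 115 and its lowest at 2.30 CPM in colony 137.

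LOC552536 differed from these in its precision. It was at 120 to 240 CPM in the 15 libraries of colony 107 (median 185), against 69.5 to 129 CPM in the 16 of colony 137 (median 99.9), a difference of 0.84 ± 0.07 SE. Its SD inside groups was 0.20, the smallest of the 80, and its range was 4.31 times that SD, the largest such ratio among the 1315 steady LOC genes. The colonies followed each other as 107, 109, 115, 122, 127 and 137, with the widest step (0.28) between 127 and 137. In foragers at day 26 colony 107 had 174, 217, 228 and 240 CPM, and colony 137 had 93.8, 101, 129 and 129 CPM. In nurses at day 7 colony 107 had 120, 132, 154 and 165 CPM, and colony 137 had 69.5, 87.4, 88.5 and 117 CPM. The 2 colonies thus did not overlap in either of these groups, and over all groups they overlapped only between 120 and 129 CPM.

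For the rest of the 20 genes with the widest ranges the difference between the extreme colonies lay between 0.75 and 0.93. LOC100577678 had 6.89 to 63.8 CPM in colony 122 (median 12.7), against 0 to 21.9 CPM in colony 109 (median 10.5). Its difference of 0.93 fell to 0.69 without the shallow library of colony 109, where it had no counts. LOC410449 had 237 to 4813 CPM in colony 109 (median 455), against 205 to 497 CPM in colony 107 (median 302). The 4813 CPM was again the shallow library of colony 109, with 1711 counts, and the other libraries of its group reached at most 744 CPM. Without it the difference was 0.69 instead of 0.87, and colony 122 became the highest. LOC102655008, the third gene of this kind, had no counts in either shallow library, and its difference between colonies 127 and 109 was 0.61 without them instead of 0.85. The differences of the other 17 of these 20 genes changed by at most 0.05 without the 2 shallow libraries. Steadiness depended more on these libraries. Without both, LOC102653935 had a role difference of 0.25. The role difference at day 26 minus that at day 7 was 0.27 for LOC412426 and -0.21 for LOC724439 and LOC726332. None of these was then steady, and 23 of the 80 genes no longer met the conditions of level and steadiness. LOC552322 had 858 to 2191 CPM in colony 127 (median 1357), against 408 to 1143 CPM in colony 107 (median 691), a difference of 0.86 ± 0.15 SE. LOC412923 was highest in colony 122 (0.88 ± 0.18 SE above colony 137), LOC100576951 and LOC100577845 were highest in colony 107 (0.88 ± 0.15 and 0.84 ± 0.17 SE above colony 137), and LOC412426 was highest in colony 127 (0.81 ± 0.20 SE above colony 137). LOC107964134 was highest in colony 115 and lowest in colony 107 (0.79 ± 0.15 SE), and LOC411922 was highest in colony 107 and lowest in colony 109 (0.79 ± 0.16 SE). The last 4 of the 20 were LOC409986, LOC410992 and LOC113218779, highest in colony 107, and LOC107965795, highest in colony 115. All 4 were lowest in colony 137, by 0.79, 0.76, 0.76 and 0.75.

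Colony 107 was the highest for 41 of the 80 genes and colony 137 the lowest for 48, and 31 genes had both. The other genes fell into 20 further pairs of highest and lowest colony, the largest being 115 over 137 (7 genes), 122 over 137 (6) and 107 over 109 (5). Colony 137 was the highest for 1 gene, LOC724741, with 32.6 to 60.3 CPM there (median 41.1), against 10.1 to 39.1 CPM in colony 122 (median 28.3). Much of this pattern was shared by genes in general. On the same CPM scale colony 137 was lowest for 55.0% of all 5819 genes and colony 107 highest for 36.9% of them. The median gene of the 5819 lay 0.08 above the mean of the colonies in colony 107 and 0.13 below it in colony 137, and the 50 genes with the most counts took 39.5% ± 5.61 of all counts in colony 107 (SD, n = 15) and 41.8% ± 4.10 in colony 137 (SD, n = 16). This share was 38.2% in colony 127, 39.0% in 115, 39.4% in 122 and 39.6% in 109, so colony 107 did not stand apart in it. TMM factors, which rescale each library so that most genes match, remove such a shift of the median gene.

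With CPM rescaled by TMM factors the median gene of each colony lay within 0.008 of the mean. Colony 107 was then the highest for 38 of the 80 genes and colony 137 the lowest for 39, and 64 of the 80 kept both the same highest and the same lowest colony. The genes had been picked on the CPM scale, so this is no independent support for the pattern. Among all 5819 genes on the rescaled values, colony 107 was the highest for 20.9% and colony 137 the lowest for 18.3%. The range over colonies of the 80 genes was 0.39 to 1.72 with a median of 0.58 (0.30 over all 5819), and 36 of them remained at or above the 0.60 that had been the limit for the 80. For 11 genes the difference between the same 2 colonies was more than 1.5 times smaller on this scale, and all 11 were highest in colony 107 and lowest in colony 137. LOC727652, for example, had 0.60 on the CPM scale and 0.39 with TMM factors. LOC552536 had 0.84 and 0.62. The genes lowest in colony 107 went the other way, LOC552073 with 1.09 and 1.17 and LOC552322 with 0.86 and 0.92.

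**Figure D2:**
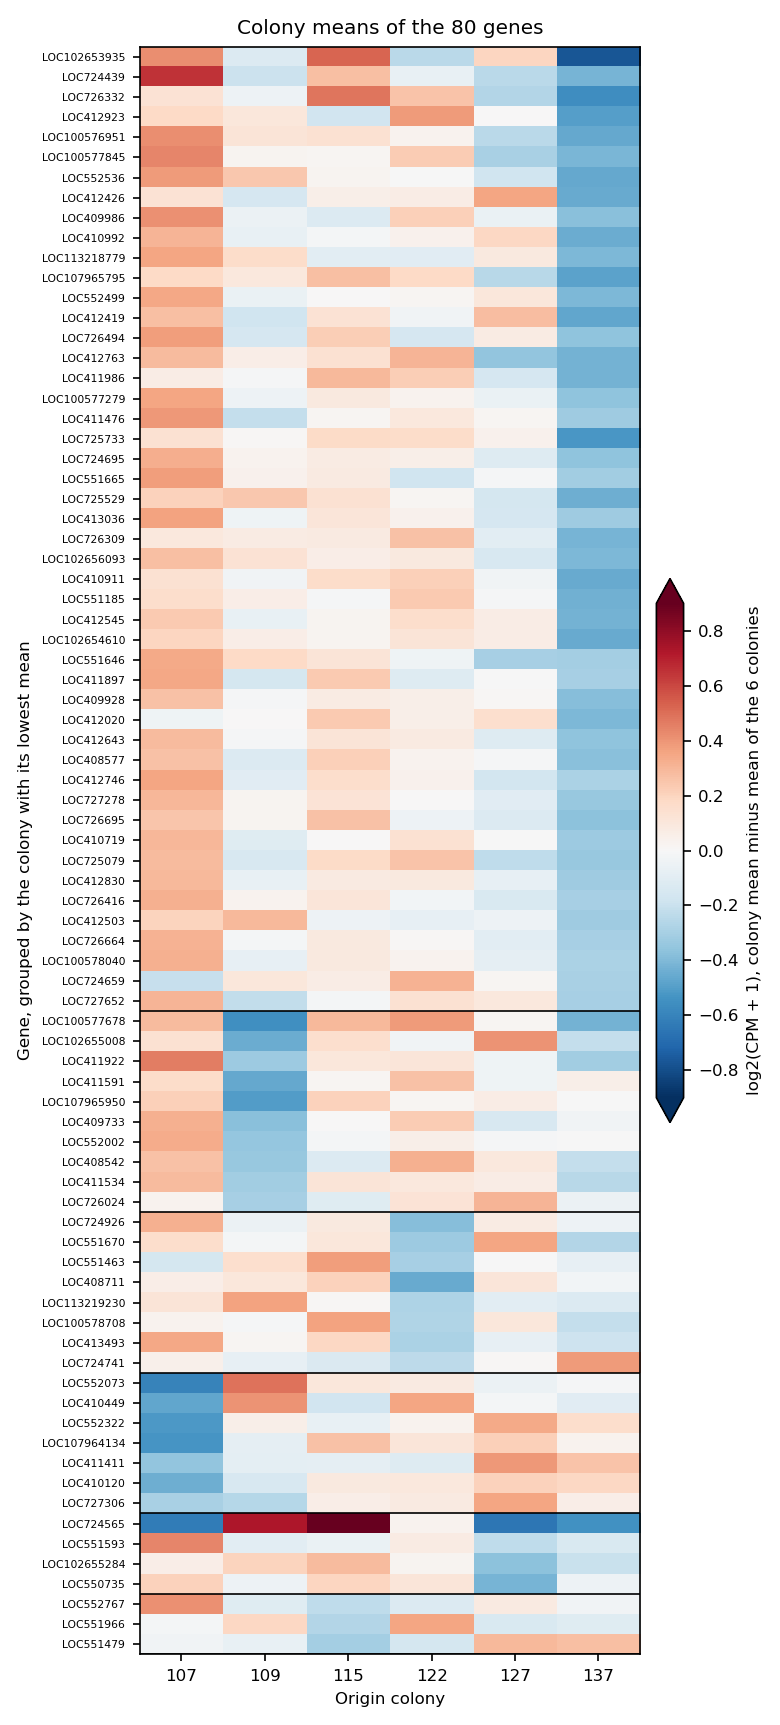
Colony mean of log2(CPM + 1) minus the mean of the 6 colonies (colour) for each of the 80 genes (rows) in each origin colony (columns). Lines part the genes by the colony with their lowest mean, which was colony 137 for 48 genes, 109 for 10, 122 for 8, 107 for 7, 127 for 4 and 115 for 3.

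The 7 genes lowest in colony 107 were LOC552073, LOC410449, LOC552322, LOC107964134, LOC411411, LOC410120 and LOC727306. They included 4 of the 6 genes above 300 CPM. LOC411411, the most abundant of the 80, had 881 to 2228 CPM in colony 127 (median 1419), against 658 to 1336 CPM in colony 107 (median 913), a difference of 0.74 ± 0.16 SE. LOC410120 had 302 to 438 CPM in colony 127 (median 337), against 161 to 316 CPM in colony 107 (median 236), a difference of 0.65 ± 0.11 SE. Its lowest library in colony 127 lay inside the range of colony 107, so the sets overlapped only between 302 and 316 CPM. LOC727306 had 48.9 to 93.9 CPM in colony 127 (median 69.7), against 25.4 to 59.9 CPM in colony 107 (median 47.5). LOC107964134 had 33.5 to 70.7 CPM in colony 115 (median 52.5), against 10.2 to 49.9 CPM in colony 107 (median 32.2).

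The genes in which each colony stood farthest from the mean of the other 5 were these, with all 92 libraries. Colony 107 stood farthest out in LOC724439 (0.78 above) and LOC724565 (0.75 below). Colony 109 stood 0.87 above in LOC724565 and 0.66 below in LOC100577678. LOC100577678 had no counts in the shallow library of colony 109, and without the 2 shallow libraries colony 137 was its lowest. Colony 115 stood 1.27 above in LOC724565 and 0.63 above in LOC102653935. Colony 122 stood 0.55 below in LOC408711 and 0.46 above in LOC412923. Colony 127 stood 0.78 below in LOC724565 and 0.50 below in LOC550735. Colony 137 stood 0.93 below in LOC102653935 and 0.67 below in LOC726332. LOC724565 was thus among the 2 for 4 of the 6 colonies. The departures of colony 122 were the smallest of the 6 pairs, and its entry LOC408711 had no counts in the shallowest library. The difference of LOC408711 between colony 115 (14.3 to 28.4 CPM, median 19.1) and colony 122 (0 to 29.2 CPM, median 11.8) was 0.66, and 0.39 without that library. The same library lowered colony 122 in LOC724926, LOC551463, LOC100578708 and LOC413493, where it also had no counts. Without it their differences of 0.70, 0.67, 0.63 and 0.63 were 0.46, 0.44, 0.35 and 0.35. With any other single library left out, no difference among the 80 genes became more than 1.5 times smaller.

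Differences were mostly graded over the colonies. The widest step between neighbours in the order took a median of 40.3% of a gene's range, close to the 43.0% of all 5819 genes. It exceeded 50% of the range for 21 of the 80 genes, a share of 26.2%, against 28.6% of all. In 40 genes the widest step lay just above the lowest colony, in 18 just below the highest and in 22 further inside. Over all 5819 genes these counts were 2175, 1260 and 2384. With TMM factors they were 29, 25 and 26 for the 80, and 1723, 1405 and 2691 for all. The larger count above the lowest colony thus depended on the scale and is not read as a trait of the 80. On the CPM scale LOC725733 was the clearest case of a colony standing alone. Its means in colonies 115, 122, 107, 127 and 109 lay close together and colony 137 was 0.53 lower, 76.2% of its range. LOC102654610 had the same form, with colony 137 at 41.3 to 96.5 CPM (median 57.5), 0.48 below the next colony, and colony 107 the highest at 68.3 to 120 CPM (median 95.8). Between colonies 115 and 137 LOC725733 differed by 0.70 on the CPM scale and by 0.53 with TMM factors. Between colonies 107 and 137 LOC102654610 differed by 0.65 and 0.43.

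The highest colony exceeded the lowest in each of the 4 combinations of role and day for 77 of the 80 genes, and in 3 of 4 for LOC100578708, LOC413493 and LOC551966. This held in all 4 for 68.4% of the 5819 genes, each with its own extreme colonies. The means compared are those the choice of genes used, so nothing is read from the count. No gene of the 80 had all libraries of its highest colony above all libraries of its lowest, and among the 5819 genes 0.0172% did (1 gene). The spread between libraries of the same group had a median SD of 0.45 over the 80 genes, against 0.33 over the 1315 steady LOC genes and 0.37 over all. The range over colonies exceeded this SD in 77 of the 80, and had a median of 1.61 times it, against 0.95 times over the 1315. The genes below it were LOC726695, LOC551966 and LOC551463, at 0.90, 0.96 and 0.97 times. The 80 were picked from the 1315 by this range, so their higher ratio follows largely from the choice, and nothing is read from it.

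**Figure D3:**
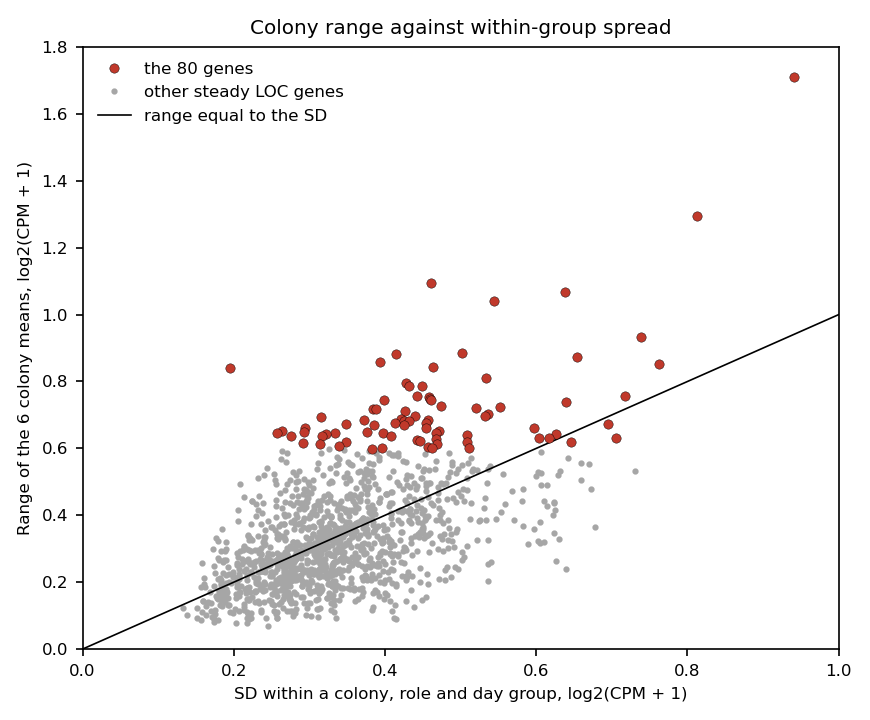
Range of the 6 colony means against the SD inside a group of colony, role and day, both in log2(CPM + 1), for the 1315 steady LOC genes. The 80 genes lie above 0.60 by choice, 77 of them above the line where both are equal, with LOC552536 at the far left and LOC724565 at the top right.

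The steadiness of the genes held on the CPM scale and with the libraries by which they were picked, and less so on the rescaled scale. On the CPM scale the difference between foragers and nurses had a median of 0.11 over the 80 genes and ran from -0.20 to 0.20, while the median of all 5819 genes was 0.22. With TMM factors the median of all genes was 0.00 and that of the 80 was -0.12, with every one of the 80 below 0 (-0.42 to -0.02), and 61 remained under 0.2 in size. The rescaling thus lowered the median gene from 0.22 to 0.00, while the choice had held the 80 under 0.2. That all 80 lay below 0 follows from the scale on which they were picked, and is not read as a trait of these genes. The day difference had a median of -0.02 over the 80 on the CPM scale and -0.07 with TMM factors, where 75 remained under 0.2. The role difference at day 26 minus that at day 7 had medians of -0.07 and -0.01, and 74 remained under 0.2. In edgeR's quasi-likelihood test with TMM factors, 13 of the 80 genes differed between roles, all lower in foragers, beside 30.1% of the 6753 genes tested. For day the test gave 3 genes (LOC410992, LOC411897 and LOC726024, all lower at day 26), beside 26.1% of all tested. For the interaction of role and day it gave 0, beside 0.829%, and for colony 46, beside 17.8%. Each of these contrasts was used to choose the genes, so nothing is read from the counts or from their direction.

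How the colony difference changes with role, day or both was not part of the choice, since role and day differences entered only as means over all libraries. The role difference did not differ between colonies for any of the 80 genes in edgeR's test with Benjamini-Hochberg adjustment over all 6753 genes (5 degrees of freedom), and 0% of all genes tested were called. At an unadjusted p under 0.05 there were 6 of the 80, against 512 of all (7.58%), and DESeq2's likelihood ratio test also called 0 of the 80, giving no adjusted p for 72 of them. The 3 genes with the smallest p were LOC552767, LOC408542 and LOC410120, with adjusted p of 0.419, 0.471 and 0.574 in edgeR. LOC552767 had log2(CPM + 1) of 3.52 in foragers and 4.10 in nurses of colony 107 (difference -0.58 ± 0.26 SE) and of 3.35 in foragers and 2.99 in nurses of colony 115 (0.36 ± 0.25 SE). LOC408542 was 0.70 ± 0.23 SE higher in foragers of colony 109 and 0.40 ± 0.23 SE higher in those of colony 122, with the other 4 colonies between -0.13 and -0.01.

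The day difference came closest to varying between colonies. None of the 80 genes passed edgeR's test, in which 0.0444% of all genes were called (3 genes), and 8 of the 80 had an unadjusted p under 0.05, against 704 of all (10.4%). LOC552536 had an adjusted p of 0.0622 and LOC727278 of 0.0666 in edgeR, and LOC102656093 followed with 0.190. LOC552536 was called by DESeq2's likelihood ratio test (adjusted p = 0.00305), the only gene of the 80 it called, with no adjusted p given for 52, and by edgeR without the 2 shallow libraries (adjusted p = 0.0363), a setting chosen after seeing the data. LOC727278 was called by edgeR without the 7 libraries that departed by their mitochondrial genes (adjusted p = 0.0329). Over all settings the adjusted p of LOC552536 ran from 0.00305 to 0.590 and that of LOC727278 from 0.0329 to 0.708, so neither call was stable.

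The values behind them were these. LOC552536 in colony 122 had 151 to 189 CPM at day 26 (median 154), against 105 to 133 CPM at day 7 (median 119), with no overlap between the 8 libraries of each day. The 8 of day 26 include nurse libraries 2 #2 and 3 (153 and 164 CPM), 1 of 2 pairs in the data whose counts were nearly alike, so they may stand for 7 separate samples. With the counts of each such pair summed the adjusted p of LOC552536 in edgeR was 0.0878. In colony 107 it had 154 to 240 CPM at day 26 (median 203), against 120 to 202 CPM at day 7 (median 165). In colony 109 the order was turned round, with 103 to 186 CPM at day 26 (median 160), against 137 to 227 CPM at day 7 (median 177). On the log2 scale the day difference of LOC552536 was 0.41 ± 0.10 SE in colony 122, 0.29 ± 0.10 in 107, 0.15 ± 0.10 in 137, 0.01 ± 0.11 in 127, -0.06 ± 0.10 in 115 and -0.20 ± 0.10 in 109. LOC727278 in colony 122 had 20.7 to 39.3 CPM at day 26 (median 25.9), against 13.7 to 26.4 CPM at day 7 (median 17.4). In colony 115 it had 16.0 to 24.7 CPM at day 26 (median 21.8), against 20.7 to 35.8 CPM at day 7 (median 27.0). Its day difference was 0.61 ± 0.14 SE in colony 122 and 0.28 ± 0.14 in colony 137, and below 0 in the other 4, lowest in colony 115 at -0.32 ± 0.14. Colony 122 at day 7 held the shallowest library, which left these differences in place for LOC552536, since it had 126 CPM there and the other 3 of its group 119 to 130 CPM. LOC102656093 was higher at day 26 by 0.72 ± 0.24 SE in colony 127 and lower at day 26 by 0.45 ± 0.21 SE in colony 122.

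**Figure D4:**
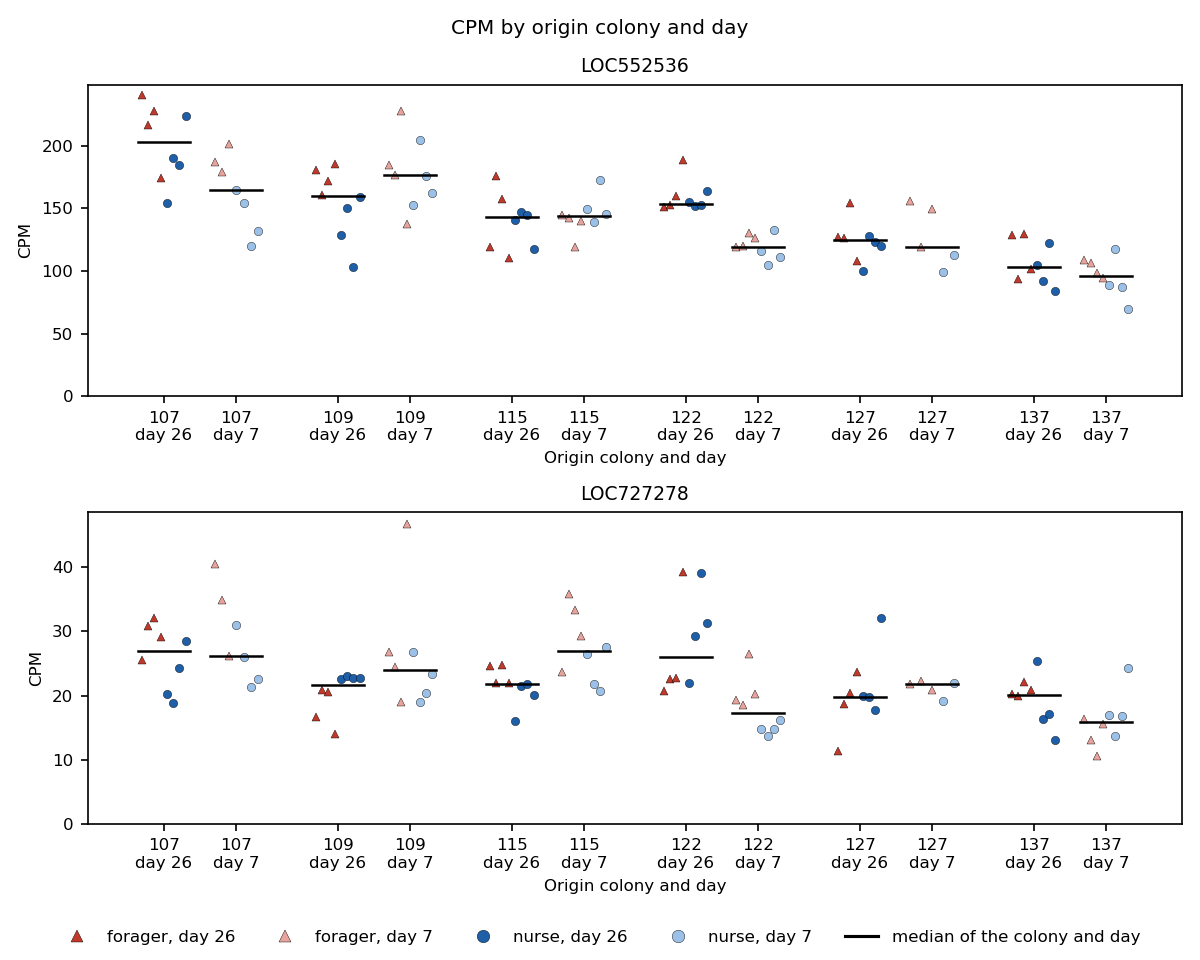
CPM of LOC552536 (top) and LOC727278 (bottom) in each library by origin colony, with day 26 left of day 7. Triangles are foragers, circles nurses, and bars are medians. In colony 122 LOC552536 has medians of 154 at day 26 and 119 CPM at day 7 with no overlap, and in colony 109 the medians are 160 at day 26 and 177 CPM at day 7.

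The interaction of role and day did not differ between colonies for any of the 80 genes in edgeR's test, with 0.118% of all genes called (8 genes), and DESeq2 also called 0 of the 80. At an unadjusted p under 0.05 there were 7 of the 80, against 374 of all (5.54%). LOC100577279, LOC551479 and LOC727306 had the smallest p, each with an adjusted p of 0.792 in edgeR. LOC100577279 had a role difference of 1.05 at day 26 and 0.05 at day 7 in colony 137, and of -0.64 at day 26 and 0.25 at day 7 in colony 127. The replicate number, added to the 24 means, did not differ for any of the 80 in edgeR's test, with 0% of all genes called, and DESeq2 called 0 of the 80 too. An unadjusted p under 0.05 was found for 3 of the 80, against 369 of all (5.46%). They were LOC412746, LOC412923 and LOC413493, with adjusted p of 0.809, 0.861 and 0.880 in edgeR. LOC413493 lay 0.21 above its group means in the 26 libraries numbered 1, 0.02 above in the 35 numbered 2 and 0.20 below in the 31 numbered 3, the last including the shallowest library, where it had no counts.

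Inside groups few pairs of the 80 genes varied together. Among their 3160 pairs, the correlation of deviations from the group means (TMM scale, without the 2 shallow libraries, 90 libraries) had a median of 0.01 and exceeded 0.5 in 3 pairs (0.0949%), against a median of 0.03 and 0.54% of pairs over the 1315 steady LOC genes and 0.299% over all 5819. With the shallow libraries it exceeded 0.5 in 19 pairs (0.601%), against 0.586% over the 1315 and 0.323% over all, 10 of the 80 being at 0 together in the shallowest. The 3 pairs were LOC107964134 with LOC410120 (0.61), LOC102656093 with LOC551646 (0.52) and LOC411411 with LOC726024 (0.51). The first pair is of genes that were both lowest in colony 107. All such correlations share libraries and depth and are given as descriptions across libraries, with no test.

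Of the 218 named genes of the same level, 11 reached a correlation of 0.6 or more with at least one of the 80 by this measure over the 90 libraries, a limit chosen after the values were seen. The 12 pairs involved 6 of the 80, whose nearest named genes were Cox6b1 for LOC410120 (0.76), ATP5G2 for LOC411411 (0.70), Eif4g for LOC411986 (0.68), Tom7 for LOC107964134 (0.66), vas for LOC411922 (0.63) and CPR14 for LOC411897 (0.62). Cox6b1 is a subunit of cytochrome c oxidase, ATP5G2 a subunit of the mitochondrial ATP synthase, Eif4g a translation initiation factor, Tom7 part of the pore that imports proteins into mitochondria, vas a germline RNA helicase and CPR14 a cuticular protein. LOC410120 alone reached the limit with 6 named genes, the others being Ndufb2 (0.69), Uqcr11 (0.65), TpnCIIIb (0.65), Sod2 (0.63) and Cox6c (0.62), and LOC411411 also reached it with Sod2 (0.62). Ndufb2, Uqcr11 and Cox6c are subunits of the respiratory chain, TpnCIIIb is a troponin C of muscle and Sod2 a superoxide dismutase. LOC551479 was most like the ribosomal protein gene RpL32 (0.59). For all other members the nearest named gene stayed below 0.6. Which of the 218 was nearest was read from the same libraries and says nothing of function. The same count was not made for other LOC genes, so whether these 12 pairs are many or few is not known.

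Neighbours among the 80 genes were read with at most 1 gene between them. The same reading was not made for other LOC genes, so whether such neighbours were few or many is not known. In RefSeq's gene order LOC412830 lay next to LOC412503, and LOC411986 and LOC412643 were parted by 1 gene, LOC412642. LOC412830 and LOC412503 had a correlation of -0.15 inside groups, and LOC411986 and LOC412643 one of 0.27. Among genes with a name, 29 met the same conditions of level and steadiness, and 3 had a range as wide as the 80. JHBP-1, a juvenile hormone binding protein by its symbol, had a range of 0.75 (highest in colony 127, lowest in 115) at a mean of 616 CPM. Snf had 0.68 (colony 107 over 127) and EF1a-F2, a form of the translation elongation factor, had 0.61 (colony 107 over 137).

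Read library by library, the profile over the 80 genes was nearest to that of the labelled colony, computed without that library, for 68 of 92. The genes had been chosen with these same libraries, which favours the own colony. This was so for 15 of 15 libraries of colony 107, 14 of 16 of 137, 12 of 16 of 115, 11 of 13 of 127, 11 of 16 of 109 and 5 of 16 of 122. Of the 7 libraries that departed by their mitochondrial genes, 3 were nearest to their labelled colony by the 80 genes, and of the other 85, 65 were. Without those 7 libraries the differences between the same 2 colonies had a median of 0.69 over the 80 genes, and for LOC724926, LOC408711, LOC100578708 and LOC413493 they were more than 1.5 times smaller. These 4 rest on the shallowest library, which is 1 of the 7. Colony 115 was the highest or the lowest for 16 of the 80 genes, and without the 7 libraries the difference was wider for 10 of these and narrower for 6. LOC724565 then had 1.90, LOC102653935 had 1.62, LOC726332 had 1.21, LOC107964134 had 0.86 and LOC107965795 had 0.81, each wider than with all libraries.

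Replicate 1 of the day 7 foragers of colony 107, with 81736 counts, took no part in choosing the genes. It held 501 counts on the 80 genes, and 66 of them had any. Of the 8 genes above 100 CPM, LOC552322 had 40 counts there, or 489 CPM (95% Poisson interval 349.6 to 666), below the 638 to 1143 CPM of the other 3 libraries of its group and below the 667 to 1567.5 CPM of the 19 day 7 forager libraries of other colonies. LOC410449 had 624 CPM (465 to 820), above the 320 to 354 CPM of its group and inside the 214 to 768 CPM of the others. LOC552536 had 171 CPM (93.6 to 287), which covers both its group (179 to 202 CPM) and all 19 of the others (94.2 to 227 CPM). LOC411411, also lowest in colony 107, had 1517 CPM (1262 to 1809), above the 852 to 1336 CPM of its group. LOC410120 had 269 CPM (169 to 408) and LOC551479 had 673 CPM (507 to 876), above the 217 to 244 and 553 to 618 CPM of their groups. LOC552073 had 36.7 CPM (7.57 to 107), from 3 counts, below the 86.0 to 130 CPM of its group. LOC726309 had 391.5 CPM (268 to 553), inside the 303 to 459 CPM of its group. Among these 8 genes only the interval of LOC410449 lay clear of its group. Those of LOC552322, LOC411411 and LOC552073 overlapped the ranges of their groups. Those of LOC410120, LOC551479 and LOC726309 covered theirs in full, so these values lay within counting error of their groups. The intervals cover counting error only.

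The choice of genes has sharp edges in closely spaced values. LOC551479 came in as the last gene with a range of 0.5992, and LOC412231 stayed out at 0.5988. By level, LOC552767 came in at 10.3 CPM, and LOC411779, steady and with a range of 0.62, stayed out at 9.93 CPM. By role difference, LOC410911 came in at 0.197, and LOC102656594 stayed out at 0.201 although its range of 1.16 would have been the third widest. By day, LOC726494 came in at 0.196 and LOC551435 stayed out at -0.201. By the change of the role difference, LOC100577678 came in at -0.199 and LOC726348 stayed out at 0.211.

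**Figure D5:**
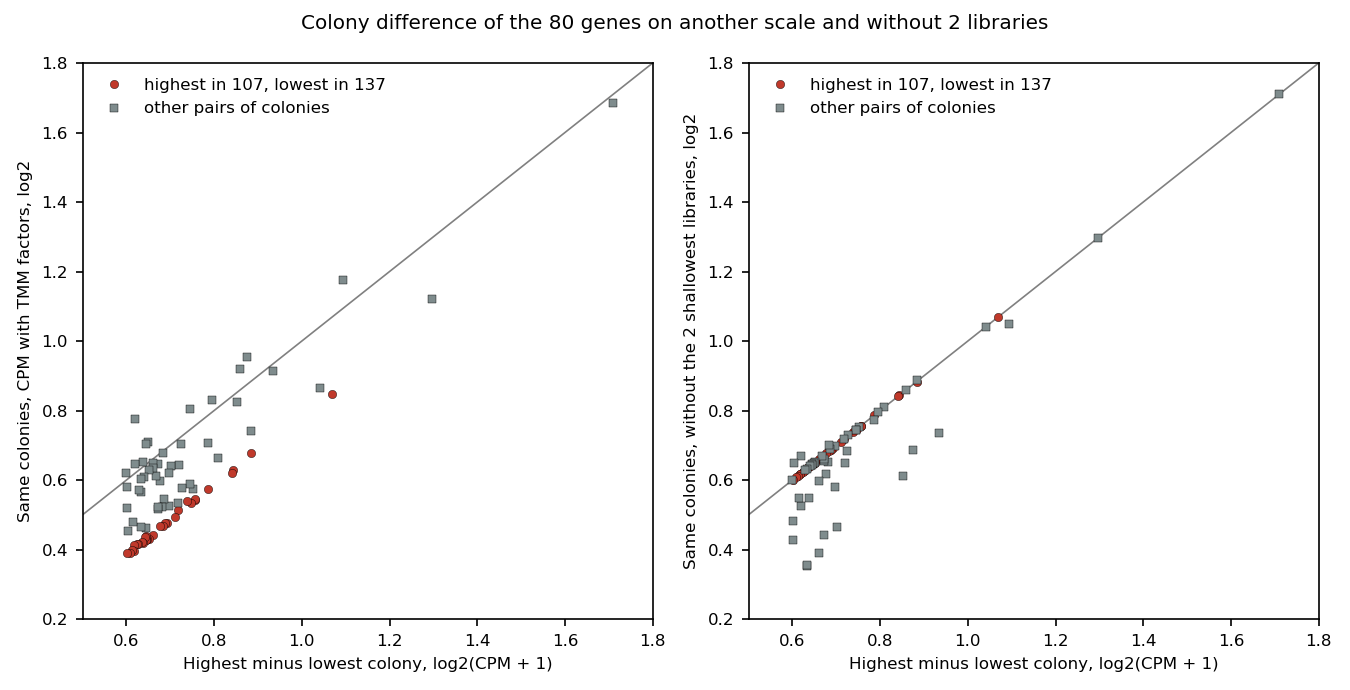
Difference between the highest and the lowest colony of each of the 80 genes as picked (x axis, log2(CPM + 1)) against the same colonies' difference with TMM factors (left) and without the 2 shallowest libraries (right), with the line of equality. On the left the 31 genes highest in colony 107 and lowest in 137 lie below the line, and on the right 5 genes fall by more than 1.5 times, to between 0.35 and 0.46.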

How the data were processed

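The authors deposited 1 table of raw counts, whole numbers of reads per gene, for 93 libraries made with an in-house TagSeq protocol, per the labels. The submitters' processing notes name FastQC, HISAT2, SAMtools and DESeq2 with no version. The sources used here do not give the counting program or the genome build, and coordinates are therefore left out. On average 12.8% of the reads fell on genes and 67.7% were listed as not aligned. The 5 entries for reads on no gene stayed out of all totals. Reads that aligned to more than 1 place (3.36%) belong to these, which can lower genes with close copies.

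Replicate 1 of colony 107 foragers at day 7 (81736 counts) was left out, and 92 libraries of 197805 to 2300891 counts on genes remained. A further 2 samples of colony 127 nurses were not analysed here. CPM and log2 values with a pseudocount of 1 were computed with pandas 2.3.3 and numpy 2.4.6 in Python 3.11.15. Tests used edgeR 4.0.16 in R 4.3.3: filterByExpr at a minimum count of 10 (6753 genes), TMM factors, the quasi-likelihood fit (glmQLFit, legacy=FALSE, robust=TRUE) of 24 means with 68 residual degrees of freedom, and F tests over 5 degrees of freedom (2 for the replicate number), with Benjamini-Hochberg adjustment over the 6753 genes and a threshold of 0.05. DESeq2 1.42.0 was an alternative. SE of colony differences came from the pooled SD inside the 24 groups. The tests were checked on simulated data.

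The genes, lists and rules for naming were chosen with earlier results of these data known. Named are the 20 genes with the widest range, the 3 with the smallest p in each test, the 2 farthest out for each colony, neighbours, genes at each threshold and up to 6 named genes that met the same conditions. Other genes, where a library or a scale moved them, were chosen after their values were seen. Libraries sharing a number and the mark #2 were counted apart. The counts of 2 pairs of libraries differed less than those of other pairs in a group (chi-square per gene of 1.62 and 2.03, against a median of 17.4 over 133 pairs), and summing each pair was an alternative.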

Additional observations from a re-analysis of the deposited data

Results flagged for a closer look

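Of the 24 sets of libraries formed by colony and day for LOC552536 and LOC727278, the 2 genes closest to a day difference that varies between colonies, 3 held a library far from the rest of its set, in that its gap to the next library took a larger share of the set's range than Dixon's 95% critical value for that number of libraries. For sets drawn from a single normal distribution, about 1 in 20 would pass that limit by chance. The sets here pool foragers and nurses on the CPM scale without logs, so this rate may not hold for them. LOC552536 in colony 122 at day 26 was highest in forager replicate 3, at 188.59 CPM, and the next of the 8 libraries was at 163.88 CPM, a gap of 0.658 of the range. LOC727278 in colony 109 at day 7 was highest in the forager library marked 3 #2, at 46.839 CPM, and the next was at 26.786 CPM, a gap of 0.719 of the range. LOC727278 in colony 137 at day 7 was highest in nurse replicate 3, at 24.241 CPM, and the next was at 16.886 CPM, a gap of 0.541 of the range.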

How the results depend on the processing

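Which genes make up the 80 depended on the processing. Of the 80, 21 were also picked with TMM factors, 51 with a pseudocount of 5, 49 without the 7 libraries that depart by their mitochondrial genes, 51 without the 2 libraries under 400000 counts, 48 at a mean CPM of 5, 51 at a mean CPM of 20, 32 with a steadiness limit of 0.3 and 35 with one of 0.15. Leaving out all libraries of 1 replicate number kept 23 to 37, and leaving out either shallow library alone kept 60, the lowest over all 92 single libraries (up to 75). These last settings and the one without both shallow libraries were chosen after seeing the data. The difference between the same 2 colonies was computed in 786 cases over 10 settings (14 could not be had without replicate 1, where colony 127 lacks a group). No sign turned, which is no sign of stability, as the colonies were picked as extremes from mostly the same libraries. The difference was more than 1.5 times smaller for 11 genes with TMM factors, 8 without replicate 3 (LOC412830 lowest, 0.18 against 0.62), 5 with replicate 1 of colony 107 foragers at day 7, 5 without the shallow libraries, 4 without the departing ones and 1 without replicate 2 (LOC412763). It moved by more than the SD inside groups in 3 cases. These were LOC552536 with TMM factors (0.62) and, with replicate 1 of colony 107 foragers at day 7, LOC724695 (0.35) and LOC412643 (0.32). In the test of the day difference between colonies, 1 of the 80 was called by DESeq2, 1 without the departing libraries and 1 without the shallow ones, and 0 in every other setting. Over all genes that test called 3, against 71 by DESeq2, 30 without the departing libraries, 17 without the shallow ones, 5 with DESeq2 size factors and 0 to 23 with a replicate number left out. It called 0 with no filter, with near-identical pairs summed or with a replicate block. The 3-way test called 8 of all genes, 16 by DESeq2, 0 without the departing libraries and 0 to 8 with a replicate number left out. The test of role between colonies called 0 of all genes, 7 by DESeq2 and 2 without replicate 1, and that of the replicate number 0, and 1 by DESeq2. The cause of these changes was not tested. Deviations of same-numbered libraries of different groups correlated at 0.0005 on average over 1362 pairs (-0.41 to 0.41). For libraries of different numbers the mean was -0.0002 over 2691 pairs (-0.41 to 0.45). A mean over all pairs cannot show whether some libraries were paired, for example by hive. The replicate block gave 0 calls among the 80 in all 3 tests, as did the model without it, so it does not decide this either. Depth limits the genes near 10 CPM, where a library of 197805 counts holds few counts.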
